A study of Mus musculus with 12 samples.

Results

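Smooth muscle contracts with a set of proteins that most other cells lack or hold in other forms, and the genes for 10 of them were followed across a mouse colitis experiment: Acta2, Actg2, Myh11, Tagln, Cnn1, Des, Myl9, Mylk, Smtn and Lmod1. Each was taken from the deposited expression table as the locus that carries its gene symbol and an annotated Ensembl transcript. All 10 of the 10 genes were found, each with 1 such locus, among 24394 gene symbols with an annotated transcript. Contraction begins when calcium activates the kinase encoded by Mylk, which phosphorylates the regulatory light chain (Myl9) of smooth muscle myosin (Myh11), so that the myosin pulls on actin filaments (Acta2, Actg2). Transgelin (Tagln), calponin (Cnn1), smoothelin (Smtn) and leiomodin (Lmod1) bind actin filaments, and desmin (Des) forms the intermediate filaments that tie the contractile apparatus together. In the wall of the colon these proteins belong to the muscle layers on both sides of the myenteric plexus, and several of their promoters carry the CArG box, the site bound by serum response factor.

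The RNA of 12 libraries came from the distal colon of C57BL/6 mice of the genotype Sox10::CreERT2+/- / Rpl22tm1.1Psam/J, in 4 groups of 3. Saline_Vehicle mice had a saline enema and injections of 0.1% DMSO, and DNBS_Vehicle mice had 5 mg of the colitis-inducing hapten DNBS in 50% ethanol with the same injections. Saline_GR159897 and DNBS_GR159897 mice had these enemas with GR159897 at 0.5 mg/kg, which blocks the neurokinin-2 receptor, in the injections. All mice had eaten tamoxifen chow (400 mg/kg) for 2 weeks and normal chow for 1 week, were injected daily over 3 days from 24 h before the enema, and were killed 48 h after an enema of 0.1 mL. By label, 2 of the 3 DNBS_GR159897 libraries were female, and 1 of 3 in each of the other groups. The labels do not say how many mice gave a library, so p-values measure the spread between these libraries, which may be technical. No ethanol is named for the saline enema, so ethanol and DNBS cannot be told apart, and the labels give no age.

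In this RiboTag design, tamoxifen-activated Cre under Sox10 control, which in the gut wall is a glial driver, puts an HA tag on the ribosomal protein Rpl22, and the tagged ribosomes are pulled down with their RNA from dissected myenteric plexus. RNA of smooth muscle genes in the pull-down can come from muscle in the dissected tissue or from tagged cells, and these cannot be told apart here, since no RNA from before the pull-down was analysed. In such bulk samples, fewer cells of a type and less RNA per cell cannot be told apart either. Levels are FPKM, fragments scaled to transcript length and to the library total. The table gives no counts, so the depth of the libraries is unknown.

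The results below turn on Myl9 and Des, whose promoter windows are therefore shown (RefSeq, GRCm38.p6, 300 bases around the annotated start, 5′ to 3′, both on the plus strand). Myl9 lies at chr2:156775420-156781658 and its window at chr2:156775214-156775513. Des lies at chr1:75360329-75368579 and its window at chr1:75360042-75360341. Capitals mark the CArG box.
Myl9: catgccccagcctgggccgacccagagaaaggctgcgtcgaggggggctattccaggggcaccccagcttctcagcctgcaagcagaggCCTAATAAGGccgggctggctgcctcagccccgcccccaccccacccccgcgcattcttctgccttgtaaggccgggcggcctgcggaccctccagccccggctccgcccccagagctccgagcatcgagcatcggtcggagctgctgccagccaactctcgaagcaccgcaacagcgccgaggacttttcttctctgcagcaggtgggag
Des: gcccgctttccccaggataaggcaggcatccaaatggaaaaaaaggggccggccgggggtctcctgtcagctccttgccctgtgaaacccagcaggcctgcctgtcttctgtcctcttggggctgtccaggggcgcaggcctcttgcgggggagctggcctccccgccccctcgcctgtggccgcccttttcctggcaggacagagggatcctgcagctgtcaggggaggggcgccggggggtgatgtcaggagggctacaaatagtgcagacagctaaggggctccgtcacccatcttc
The CArG box of Myl9, CCTAATAAGG, runs from 161 to 152 bases before the RefSeq start, and no CArG box stands in the Des window. Of the 10 genes 7 were matched in the promoter table (Acta2, Cnn1, Des, Lmod1, Mylk, Myl9 and Smtn), and 1 of these 7 windows held the motif on either strand, searched as CC, 6 bases that are each A or T, and GG, with 0 mismatches. Over all 32851 windows of that length, 1.63% held it. With 1 base off allowed, 3 of the 7 windows (Acta2, Lmod1 and Myl9, with 2 stretches each) and 21.1% of all windows held a match.

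Most of the contractile genes were among the most abundant RNAs of the pull-down, while Mylk, Smtn and Lmod1 ranked at best 334, 401 and 1088 in any library. Together the 10 genes made up 0.84% to 2.62% of the FPKM of annotated genes in 11 of the 12 libraries, and between 4 and 7 of them stood among the 100 highest genes of each of these libraries. DNBS_GR159897 replicate 1 stood apart: the 10 genes held 0.284% of its annotated FPKM and summed to 312.8 FPKM, against 2169 to 7215 in the other 11. In the same library 22.6% of all FPKM fell on annotated loci, against 53.8% to 95.1%. Its 14 glial markers summed to 20.8 FPKM (507 to 3231 in the other 11, of which the 3 Saline_Vehicle sums lack Gfap, blank in those libraries), and its 10 epithelial markers to 1033 FPKM (0.43 to 51.8). The part of that epithelial RNA in any result was not tested, and values of the contractile genes from comparisons with DNBS_GR159897 are therefore given with and without that library.

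**Figure D1:**
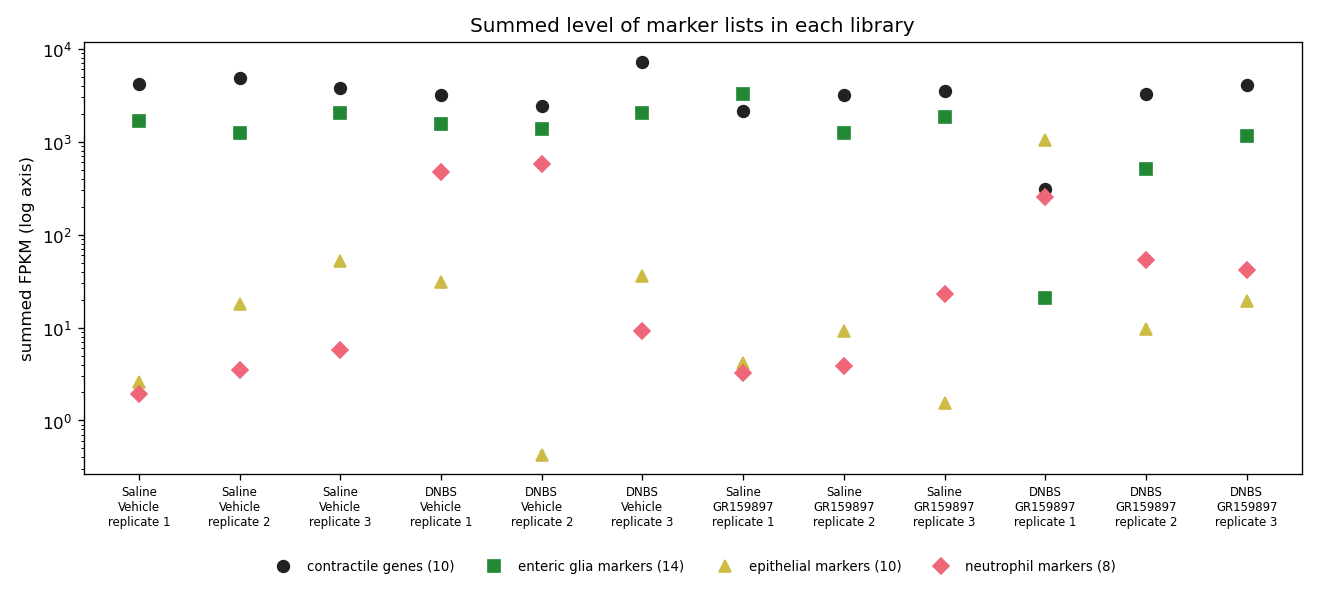
Summed FPKM (log axis) of the 10 contractile genes, 14 glial, 10 epithelial and 8 neutrophil markers in each of the 12 libraries; the glial sums of the 3 Saline_Vehicle libraries lack Gfap, which is blank there. In DNBS_GR159897 replicate 1 the contractile genes (312.8) and glial markers (20.8) were at their lowest and the epithelial markers (1033) at their highest.

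Over the other 11 libraries, mean levels ran from Tagln (696 ± 397 FPKM, SD, n = 11) and Cnn1 (653 ± 362) through Acta2 (627 ± 184), Des (527 ± 286), Myh11 (459.9 ± 263) and Actg2 (447 ± 262) to Myl9 (270.1 ± 169). Neighbours among these 7 differed by less than the larger of their SDs. Mylk (75.0 ± 24.8), Smtn (39.7 ± 19.0) and Lmod1 (18.1 ± 10.95) lay below them.

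**Figure D2:**
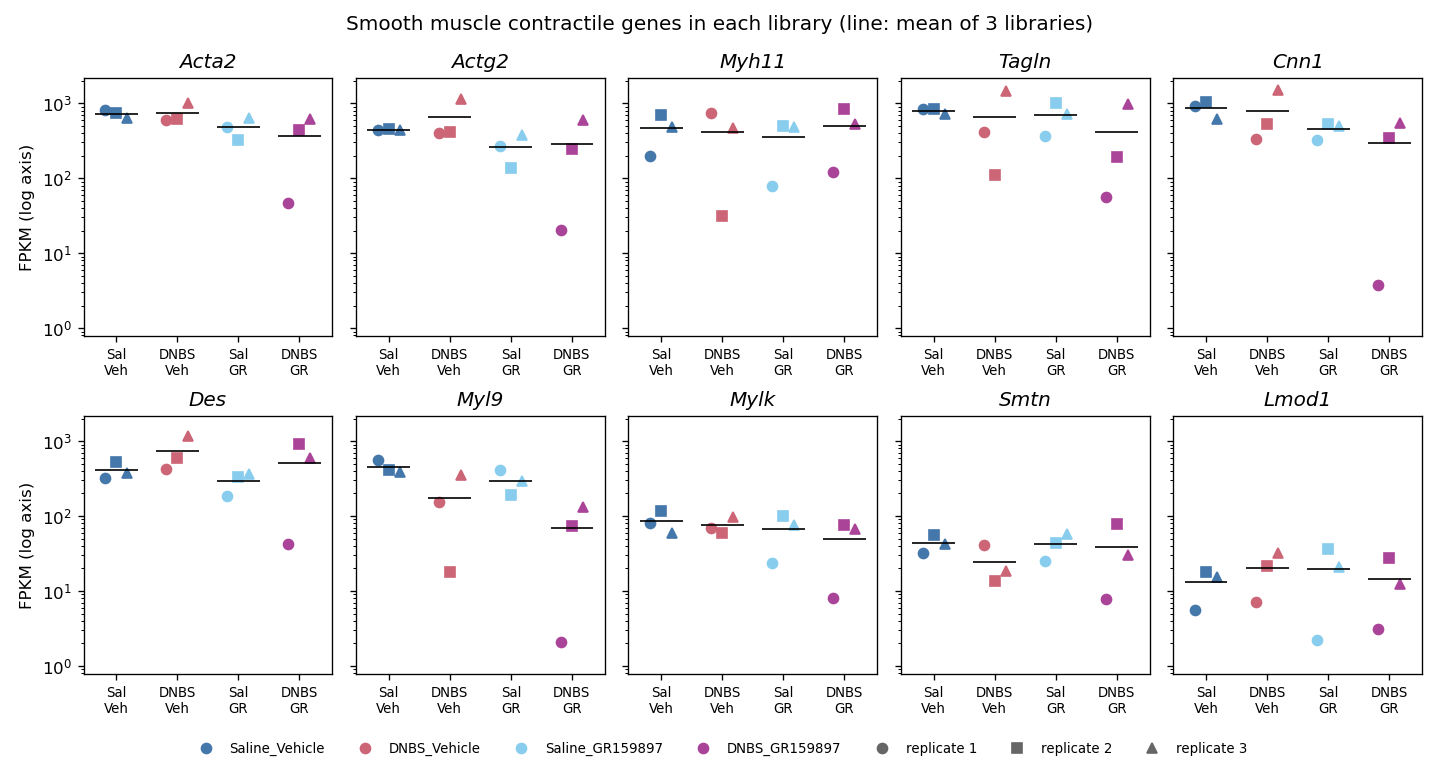
FPKM (log axis) of each contractile gene in each library, by group, with the mean of 3 libraries as a line; the marker shape gives the replicate. Myl9 lay at 189 to 563 FPKM in the 6 saline libraries and at 2.07 to 356 in the 6 DNBS libraries, and DNBS_GR159897 replicate 1 was the lowest of its group for 10 of the 10 genes.

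Among the thin filament actins, Acta2, the alpha actin of smooth muscle (chr19:34241090-34255590, minus strand), measured 812, 733 and 639.7 FPKM in Saline_Vehicle replicates 1 to 3, and after DNBS alone (DNBS_Vehicle) 599, 610.4 and 1005 FPKM. With the antagonist it measured 482, 326 and 643 FPKM after saline and 47.4, 434 and 609.9 FPKM after DNBS. The groups overlapped in each comparison, and Saline_GR159897 replicates 1 and 2 stood under all 3 Saline_Vehicle values. Actg2, the gamma actin typical of visceral muscle (chr6:83512905-83536265, minus strand), was even among the Saline_Vehicle libraries at 439, 450.5 and 437 FPKM. Its DNBS_Vehicle values were 404, 417 and 1141 FPKM, its Saline_GR159897 values 266, 137 and 378 FPKM, and its DNBS_GR159897 values 20.2, 242 and 608 FPKM. All 3 Saline_GR159897 values lay below all 3 Saline_Vehicle values.

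Of the thick filament and its switch, Myh11, the smooth muscle myosin heavy chain (chr16:14194535-14291372, minus strand), varied widely within groups. It measured 201, 703 and 482 FPKM in Saline_Vehicle, 732, 31.5 and 462 in DNBS_Vehicle, 78.0, 495 and 490.2 in Saline_GR159897, and 122, 851 and 532 in DNBS_GR159897. The lowest library of each group lay far below the others, and the groups overlapped. Myl9, the regulatory light chain, measured 563, 406 and 382 FPKM in Saline_Vehicle, against 152, 18.1 and 356 FPKM with DNBS alone. With GR159897 it measured 409.7, 189 and 290.0 FPKM after saline and 2.07, 72.5 and 133 FPKM after DNBS. In both drug arms the 3 DNBS values lay below the 3 saline values. Mylk, the kinase that phosphorylates this light chain (chr16:34745210-35002420, plus strand), measured 80.9, 117 and 59.0 FPKM in Saline_Vehicle, 68.9, 59.6 and 98.6 in DNBS_Vehicle, 23.9, 99.2 and 75.7 in Saline_GR159897, and 8.03, 75.5 and 66.6 in DNBS_GR159897. Its groups overlapped throughout.

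Among the actin-binding proteins, Tagln, a marker of differentiated smooth muscle (chr9:45929619-45936058, minus strand), measured 840.5, 847 and 714 FPKM in Saline_Vehicle, against 419, 109 and 1442 FPKM with DNBS alone. With GR159897 its values were 369, 1024 and 711 FPKM after saline and 55.9, 192 and 990.0 FPKM after DNBS. Its DNBS values spread to both sides of the saline values. Cnn1, calponin, an inhibitor of the actomyosin ATPase (chr9:22099216-22109630, plus strand), measured 933, 1031 and 619 FPKM in Saline_Vehicle, 339, 529.9 and 1500.2 in DNBS_Vehicle, 328, 522 and 504 in Saline_GR159897, and 3.81, 339.9 and 539 in DNBS_GR159897. Its 3 Saline_GR159897 values lay below all Saline_Vehicle values.

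Smtn, smoothelin (chr11:3517523-3540612, minus strand), measured 32.4, 55.5 and 42.3 FPKM in Saline_Vehicle, against 40.8, 13.5 and 18.3 FPKM with DNBS alone. Its values with GR159897 were 25.1, 43.6 and 56.7 FPKM after saline and 7.82, 78.9 and 29.8 FPKM after DNBS. Lmod1, leiomodin, a nucleator of actin filaments (chr1:135324807-135368065, plus strand), measured 5.56, 18.1 and 15.6 FPKM in Saline_Vehicle, 7.19, 21.7 and 32.4 in DNBS_Vehicle, 2.21, 36.0 and 21.1 in Saline_GR159897, and 3.13, 27.3 and 12.4 in DNBS_GR159897. Both genes overlapped between groups in all comparisons. Lmod1 differs from the other 9 genes in where its signal lies: 5 more loci without an annotated transcript carry its name, and they held 49.7% of the FPKM summed over all loci named Lmod1 (15.6% to 78.0% by library). For the other 9 genes that share was at most 5.12% (Mylk), though in single libraries it reached 35.8% for Mylk, 19.0% for Actg2 and 16.8% for Cnn1.

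Desmin, the intermediate filament protein of muscle, had its highest values in DNBS libraries. Des measured 324, 523 and 372 FPKM in Saline_Vehicle, against 426, 598 and 1160 FPKM with DNBS alone, where the means were 406 ± 104 and 728 ± 384 FPKM (SD, n = 3). With GR159897 it measured 186, 336 and 364 FPKM after saline and 42.3, 919 and 590.2 FPKM after DNBS. Leaving aside DNBS_GR159897 replicate 1, the 5 DNBS values ran from 426 to 1160 FPKM and the 6 saline values from 186 to 523, so that the ranges met only between 426 and 523.

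The first comparison asks what DNBS colitis does without the antagonist. In DNBS_Vehicle against Saline_Vehicle, 0 of the 10 genes passed limma's moderated test at a Benjamini-Hochberg adjusted p of 0.05, where 0.321% of 12777 genes passed, and 0 of the 10 had an unadjusted p under 0.05 (12.6% of all genes). Differences here and below are in log2(FPKM + 1), ± the standard error, and understate the change of genes at low levels. Myl9 had the largest difference, -2.13 ± 1.27 (adjusted p = 0.53), with 3 of 3 DNBS libraries below all saline ones, as for 14.9% of all genes. Tagln (-0.98 ± 1.05), Smtn (-0.94 ± 0.72), Myh11 (-0.88 ± 1.17), Cnn1 (-0.38 ± 1.36) and Mylk (-0.15 ± 0.79) also had negative values that did not pass. Des (0.74 ± 0.96), Lmod1 (0.53 ± 0.93) and Actg2 (0.38 ± 1.00) had positive ones, and Acta2 was at -0.02 ± 0.83. The median of the 10 was -0.27 (7 below 0), beside -0.11 over all genes, 56.8% of which were below 0.

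The second comparison gives the antagonist alone. In Saline_GR159897 against Saline_Vehicle, limma called 0 of the 10 genes and 0 of 12777 in all (0%), and 0 of the 10 had an unadjusted p under 0.05, beside 1.69% of all genes. Differences ran from -0.93 ± 1.36 for Cnn1 to 0.11 ± 0.93 for Lmod1. Of the 10 genes, 9 were below 0 with a median of -0.57, beside a median of -0.03 over all genes. Cnn1 and Actg2 (-0.88 ± 1.00) had 3 of 3 libraries below all Saline_Vehicle ones, as 4.18% of all genes did. Acta2 was at -0.64 ± 0.83. The members share their libraries, so their signs are not independent of each other.

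In DNBS_GR159897 against DNBS_Vehicle, the antagonist within colitis, limma called 0 of the 10 and 0 of 12778 genes (0%), and 0 of the 10 had an unadjusted p under 0.05 (8.13% of all genes). The largest differences were those of Cnn1 (-2.75 ± 1.36), Actg2 (-1.98 ± 1.00), Myl9 (-1.71 ± 1.27) and Acta2 (-1.61 ± 0.83), with adjusted p-values of 0.62 (0.65 for Myl9), and Myh11 was at 0.78 ± 1.17. They rest on DNBS_GR159897 replicate 1: without it, Cnn1 was at -0.59, Actg2 at -0.59, Myl9 at -0.03, Acta2 at -0.48 and Myh11 at 1.60, and the median of the 10 moved from -1.14 to 0.02. Over all genes that median was -0.21 with the library and -0.06 without it.

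In DNBS_GR159897 against Saline_GR159897, DNBS under the antagonist, limma called 0 of the 10 genes (1.38% of all genes) and 1 of the 10, Myl9, had an unadjusted p under 0.05 (22.7% of all genes). Myl9 differed by -3.19 ± 1.27 (adjusted p = 0.17), with 3 of 3 DNBS libraries below all saline ones, as for 17.6% of all genes. Without replicate 1 of DNBS_GR159897 it differed by -1.51. Cnn1 (-2.20 ± 1.36) and Tagln (-1.55 ± 1.05) were next, and without that library they were at -0.04 and -0.57. Des moved from 0.01 ± 0.96 to 1.38 ± 0.48 (adjusted p = 0.18) and Myh11 from 0.51 ± 1.17 to 1.33 when it was left out. The median of the 10 was -0.70 with the library and 0.30 without it, beside -0.27 and -0.12 over all genes. Scaling each library to its median ratio brought the median of all genes to 0.00 and that of the 10 to -0.30.

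**Figure D3:**
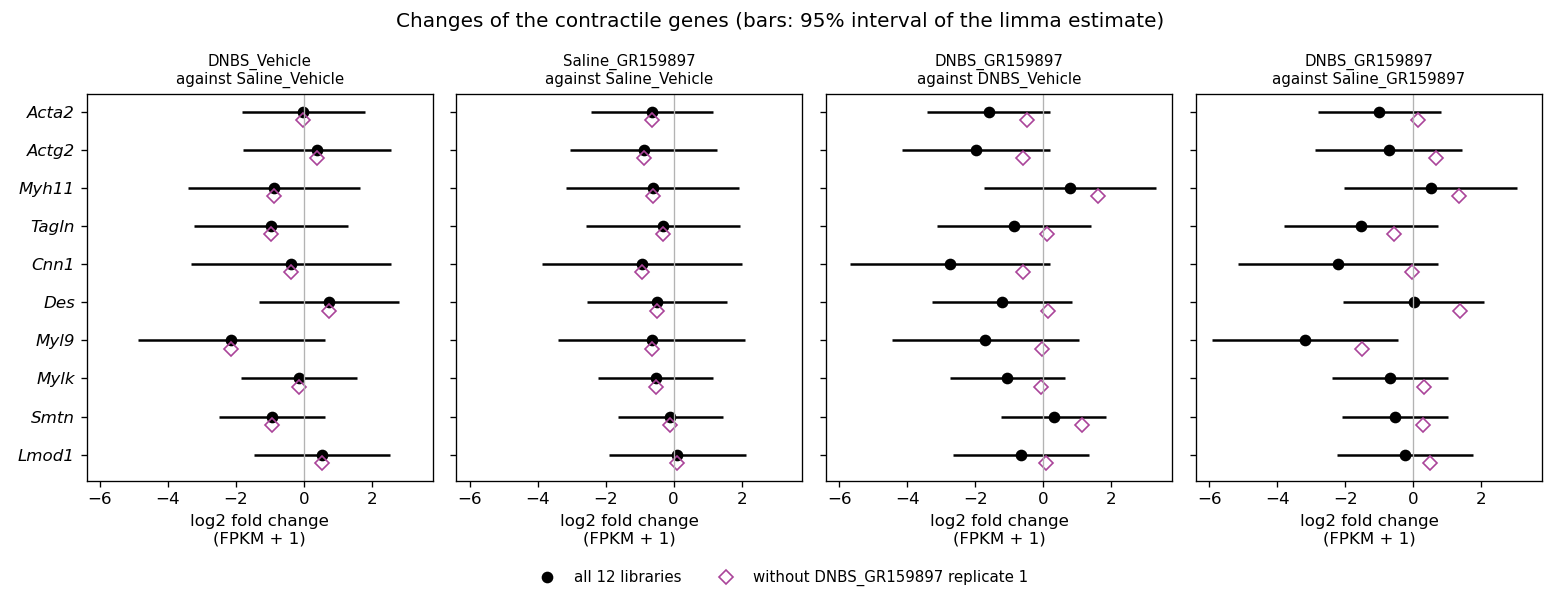
Log2 fold change of FPKM + 1 (horizontal axis) for each contractile gene in 4 comparisons; filled circles are limma estimates over all 12 libraries with 95% intervals, and open diamonds the estimates without DNBS_GR159897 replicate 1. The circles and diamonds part only in the comparisons that involve DNBS_GR159897, where Cnn1 moved from -2.75 to -0.59 against DNBS_Vehicle.

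Whether the response to DNBS differed with the antagonist was tested as the interaction of both treatments. Limma called 0 of the 10 genes and 0 of all genes (0%; 3.58% at an unadjusted p under 0.05, 0 of the 10), and the lowest adjusted p among the 10 was 0.96. The values ran from -1.82 ± 1.92 for Cnn1 to 1.39 ± 1.66 for Myh11, and without DNBS_GR159897 replicate 1 Cnn1 was at 0.34 and Myh11 at 2.21. For the antagonist averaged over both enemas, limma again called 0 of the 10 (0% of all genes, 4.36% at an unadjusted p under 0.05, 0 of the 10). Cnn1 (-1.84 ± 0.96), Actg2 (-1.43 ± 0.71) and Acta2 (-1.13 ± 0.59) shared an adjusted p of 0.89, and Myh11 was at 0.08 ± 0.83. Without replicate 1 of DNBS_GR159897, Cnn1 was at -0.76, Actg2 at -0.73, Acta2 at -0.56 and Myh11 at 0.49.

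Averaged over both drug arms, DNBS set 6 libraries against 6. Limma called 0 of the 10 contractile genes, where 9.6% of all genes were called, and 1 of the 10 had an unadjusted p under 0.05 (28.3% of all genes). That gene was Myl9, with a difference of -2.66 ± 0.90 (adjusted p = 0.077), and of -1.82 ± 0.63 (adjusted p = 0.091) without DNBS_GR159897 replicate 1. Its adjusted p ran from 0.02 to 0.18 over the 22 alternatives and passed the threshold in 2 of them: with libraries weighted by their quality (-1.82, adjusted p = 0.02) and without DNBS_GR159897 replicate 3 (-3.18). Des differed by 0.38 ± 0.68, and by 1.06 ± 0.32 (adjusted p = 0.06) without DNBS_GR159897 replicate 1. Tagln (-1.26 ± 0.74) and Cnn1 (-1.29 ± 0.96) had adjusted p-values of 0.28 and 0.403, and without that library they were at -0.77 and -0.21.

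Because the level of all 10 genes together varied between libraries, the balance among them was then read within each library, as a gene's log2(FPKM + 1) minus the mean of the other 9. This measure was added after the values had been seen. On it Des had the smallest SD of the 10 genes over the 6 saline libraries (0.09, against 0.28 for Smtn to 1.102 for Lmod1 among the other 9). Its values were 0.68, 0.90 and 0.79 in Saline_Vehicle and 0.89, 0.80 and 0.73 in Saline_GR159897 (mean 0.80 ± 0.09, SD, n = 6). In the DNBS libraries it stood at 1.37, 2.85 and 1.91 (DNBS_Vehicle) and at 1.54, 2.51 and 1.60 (DNBS_GR159897). All 6 DNBS values lay above all 6 saline values, DNBS_GR159897 replicate 1 included.

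The difference for Des was 1.16 (two-sided exact permutation test over libraries within drug arms, p = 0.005, n = 6 per group, unadjusted), and p = 0.005 is the smallest value that the 400 arrangements can give. Without DNBS_GR159897 replicate 1 it was 1.25 (exact p = 0.005 over 200 arrangements). Such complete separation with higher DNBS values was seen for 1.64% of all genes, each read against the mean of the contractile genes. That mean ran from 4.05 (DNBS_GR159897 replicate 1) to 8.47 (DNBS_Vehicle replicate 3) in log2(FPKM + 1). Genes that do not follow it gain this spread when it is subtracted, so the share is not a chance rate for Des. Over 15 alternatives, each library left out in turn included, the difference ran from 0.93 to 1.33 and the exact p from 0.005 to 0.01.

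Myl9 went the other way on the same measure. It stood at 1.57, 0.50 and 0.84 in Saline_Vehicle and at 2.15, -0.12 and 0.36 in Saline_GR159897, against -0.28, -2.67 and 0.01 in DNBS_Vehicle and -2.70, -1.54 and -0.78 in DNBS_GR159897. The 2 treatments overlapped by a single saline library, Saline_GR159897 replicate 2. The difference was -2.21 (exact permutation test within drug arms, two-sided p = 0.005, n = 6 per group, unadjusted), and -1.95 (exact p = 0.01) without DNBS_GR159897 replicate 1. An exact p of 0.005 in either direction was reached by 3.47% of all genes, read against the same mean and with the same limit as for Des. Over the 15 alternatives the difference ran from -2.46 to -1.79 and p from 0.005 to 0.015.

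Des and Myl9 enter each other's reference, so each was also read against the other 8 genes alone. Des then differed by 0.93 and Myl9 by -2.10, both with an exact permutation p of 0.005 (n = 6 per group). Against these 8 genes Myl9 overlapped, with saline values from -0.03 and DNBS values up to 0.23. As a plain ratio, Myl9 stood at 0.451 to 0.85 of Acta2 in the 6 saline libraries and at 0.0296 to 0.354 in the 6 DNBS libraries, with no overlap. Acta2 was the only denominator of the plain ratios. Des was also read against Myl9 as a difference in log2(FPKM + 1), from -1.14 to 0.83 after saline and from 1.48 to 4.97 after DNBS. No share over all genes was computed for such ratios. Des stood at 0.386 to 1.03 of Acta2 after saline and at 0.711 to 2.12 after DNBS, with overlap.

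**Figure D4:**
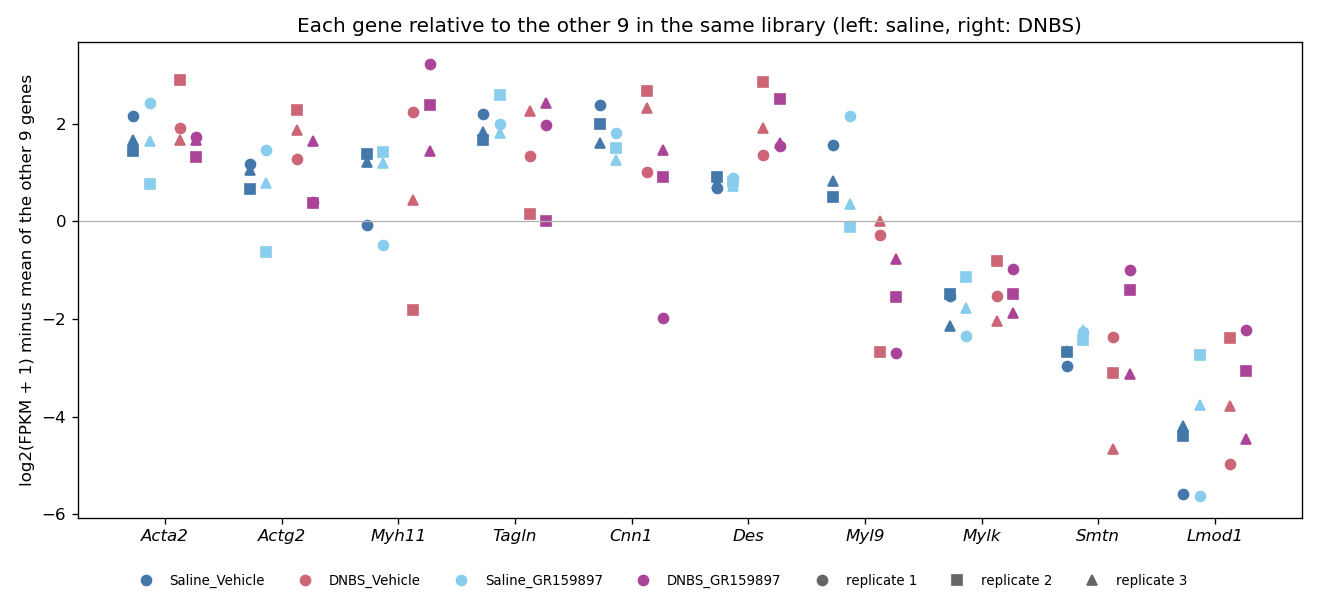
Log2(FPKM + 1) of each contractile gene minus the mean of the other 9 in the same library (vertical axis), saline libraries on the left and DNBS libraries on the right of each gene; colour gives the group and shape the replicate. The 6 saline values of Des cluster between 0.68 and 0.90 below all 6 DNBS values (1.37 to 2.85), and those of Myl9 lie mostly above its DNBS values.

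For the other 8 genes the DNBS difference on this measure had exact permutation p-values of 0.195 (Actg2) and above (n = 6 per group). For the antagonist 10 more tests were made, 20 in all. Cnn1 had a difference of -1.17 (exact p = 0.045, n = 6 per group), which was -0.64 (exact p = 0.11) without DNBS_GR159897 replicate 1, and the other 9 had p-values of 0.07 and above. No p-value of these 20 tests was adjusted.

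Genes that work with the contractile proteins were taken from a list of 26 partners, led in level by Csrp1, Tpm2 and the locus of Myl6 and Myl6b (means of 806, 587 and 360.5 FPKM over 12 libraries). Averaged over both drug arms, limma called 2 of the 26 lower with DNBS and 0 higher (6.83% and 2.76% of all genes). These were Cav1, the coat protein of caveolae (-1.80 ± 0.46, adjusted p = 0.032), and Itga8, an integrin subunit (-1.11 ± 0.31, adjusted p = 0.041). The median of the list was -0.07, beside -0.18 over all genes. Cav1 measured 7.59 to 22.7 FPKM in the 6 saline libraries and 0.51 to 12.4 FPKM in the 6 DNBS libraries. Without DNBS_GR159897 replicate 1 (9.5% of all genes called), Cav1 was still called (-1.80, adjusted p = 0.046) and Itga8 was not (-1.02), while Actn1, an actin cross-linker (1.98 ± 0.48, adjusted p = 0.028), and Cald1, caldesmon (1.06 ± 0.27, adjusted p = 0.032), were called higher. Cav1 was past the threshold in 11 of 22 alternatives and Itga8 in 7 of 22, where summing all loci named Itga8 gave -0.05.

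Of 10 transcriptional regulators tested, Hopx, Srf and Klf4 had the highest mean levels. Klf4 measured 53.4 FPKM in DNBS_GR159897 replicate 1, against 0.64 to 6.05 in the other 11 libraries. Of the 10 regulators, 9 had values above 0, where 61.2% of all genes were below 0, and 1 was called lower (6.83% of all genes). This was Hopx, a homeodomain cofactor of serum response factor (-1.24 ± 0.31, adjusted p = 0.028, past the threshold in 12 of 22 alternatives). Without DNBS_GR159897 replicate 1 it was at -1.36. Hopx measured 13.9, 15.1 and 14.6 FPKM in Saline_Vehicle and 6.26, 4.34 and 4.26 FPKM with DNBS alone. The groups did not overlap, and 14.9% of all genes were likewise lower without overlap there. With GR159897 it measured 12.6, 20.1 and 34.6 FPKM after saline and 13.5, 9 and 6.48 FPKM after DNBS, with overlap through DNBS_GR159897 replicate 1 alone. Of 14 channels, receptors and relaxation genes, led by Atp2a2, Kcnmb1 and Pde5a, 9 had values below 0 and 1 was called lower, against the same 6.83%: Pln, phospholamban, the inhibitor of the calcium pump (-1.39 ± 0.40, adjusted p = 0.047). Pln was past the threshold in 5 of 22 alternatives and not without DNBS_GR159897 replicate 1 (-1.10, adjusted p = 0.071). Of 6 striated muscle isoforms 3 had values below 0 and 1 was called lower, the cardiac troponin Tnnt2 (-1.73 ± 0.37, adjusted p = 0.017). Without DNBS_GR159897 replicate 1 it was at -1.66 (adjusted p = 0.026), and its range over the other alternatives was not read. Tnnt2 measured 1.47 to 8.77 FPKM after saline and 0 to 1.46 FPKM after DNBS. Its saline levels carried it past the filter, so 1 of 6 cannot be set against the 6.83% of all genes.

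Nonmuscle relatives of the contractile genes were read in the same way. Of 12 tested, led in level by Actb, Tagln2 and the locus of Actg1, limma called 2 higher with DNBS (2.76% of all genes) and 0 lower, while 7 of the 12 had values below 0 and the median of the list was -0.24. Myh9, the heavy chain of nonmuscle myosin IIA, measured 0.61 to 3.16 FPKM in the 6 saline libraries. It measured 19.3, 3.01 and 11.8 FPKM in DNBS_Vehicle and 91.2, 25.6 and 15.2 FPKM in DNBS_GR159897. Its difference was 2.65 ± 0.49 (adjusted p = 0.0102), it was 2.29 without DNBS_GR159897 replicate 1, and it was past the threshold in 22 of 22 alternatives. Tpm3, a tropomyosin made in many cell types, measured 14.8, 17.03 and 20.9 FPKM in Saline_Vehicle and, with the antagonist, 21.8, 30.3 and 26.8 FPKM. After DNBS it measured 46.5, 60.9 and 39.7 FPKM without the antagonist and 66.8, 38.9 and 42.8 FPKM with it. All 6 DNBS libraries lay above all 6 saline ones, as for 1.74% of all genes. Its difference was 1.14 ± 0.29 (adjusted p = 0.032, past the threshold in 13 of 22 alternatives), and without DNBS_GR159897 replicate 1 Tpm4 was called as well (1.22 ± 0.24, adjusted p = 0.011).

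Markers of other cells moved with DNBS beside these changes. Over all genes 2.76% were called higher and 6.83% lower. Limma called 4 of 10 macrophage markers higher (Cd68, Mrc1, Itgam and C1qc, by 1.25 to 1.67), and 3 of 5 neutrophil markers (S100a8, S100a9 and Retnlg, by 3.75 to 4.77). Itgam, Retnlg and Ngp passed the filter of 1 FPKM through DNBS libraries alone. S100a8 and S100a9 passed through DNBS libraries and Saline_GR159897 replicate 3, and Ly6g, Csf3r and Cxcr2 did not pass. Among the macrophage markers, Mrc1 and Csf1r passed through DNBS libraries and Saline_GR159897 replicate 2, and Adgre1 through DNBS libraries and Saline_Vehicle replicate 3. The 5 neutrophil and 10 macrophage markers were thus picked in part by their DNBS levels. Neither 3 of 5 nor 4 of 10 can be set against the share of all genes. The 8 neutrophil markers summed to 1.91 to 22.8 FPKM after saline and to 9.14 to 581 FPKM after DNBS, and Retnlg was listed at 0 in all 3 Saline_Vehicle libraries. Of 12 glial markers 4 were called lower (Sox10, Gpr37l1, Erbb3 and the locus of Npdc1 and Entpd2, by -2.98 to -1.18), and Sox10, whose promoter drives the Cre, was at -2.98 ± 0.80 (adjusted p = 0.037). Without DNBS_GR159897 replicate 1 the same 4 macrophage markers were called, 1 neutrophil marker (S100a8), and 3 glial markers lower (Gpr37l1, Erbb3 and the locus of Npdc1 and Entpd2) with 1 higher (Artn, 1.81 ± 0.41). Markers of pericytes, interstitial cells of Cajal, fibroblasts, mesothelium, epithelium, endothelium and neurons had 0 calls. Without DNBS_GR159897 replicate 1, Etv1 of the interstitial cells (-0.90 ± 0.23, adjusted p = 0.034) and Vip of the neurons (1.11 ± 0.27, adjusted p = 0.026) were called. The 8 markers of the interstitial cells summed to 25.2 to 38.2 FPKM after saline and to 13.1 to 23 FPKM after DNBS. The sums of the other lists without calls overlapped, and no sum was tested. Leukocytes also express Myh9 and Tpm3, and their part in those changes was not tested.

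Across libraries the 10 genes did not rise and fall as a block. Over the 11 libraries without DNBS_GR159897 replicate 1, Pearson's r of log2(FPKM + 1) between pairs ran from -0.45 to 0.92 with a median of 0.32, and 9 of 45 pairs were negative. With that library included, the median was 0.67 and 0 pairs were negative. The genes most like the mean of the 10 over these 11 libraries were Gm6563 (r = 0.91), Ifrd2 (0.895), Borcs7, the locus of Mrps34 and Nme3, Npm3, Gm3531, Rps19-ps7 and Twist1 (0.89 each), and over all 12 libraries the same 8 had r from 0.73 to 0.98. These values are a description, since all pairs share library and depth.

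Some readings of single genes carry a limit from the sequence. The exons of Tagln overlap Pcsk7 and Gm48529 on the other strand, those of Des overlap Gm15179, those of Mylk overlap E130310I04Rik and Gm21691, and those of Smtn overlap Gm11946 and Gm11947. The library kit is not stated to keep strand, so reads in those overlaps cannot be told apart. Of the stretches of 50 bases in the longest transcripts, 0.352% of Acta2 recur in Actg1 or actin pseudogenes and 0.4% of Myh11 recur in Myh9 or Myh10, and 0 recur for the other 8 genes.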

How the data were processed

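The authors deposited FPKM values for 99547 loci in 12 libraries, of which 24432 carry an annotated Ensembl transcript. Among the tools in the submitters' processing notes are StringTie 1.3, HISAT2 2.0, FastQC 0.10.1 and cutadapt 1.10; their settings and the genome build are not given in the sources used here. SMART-seq v4 and Nextera libraries were made from 1 ng, per the labels' protocols. Identical libraries were looked for and 0 pairs found. Depth is unknown, so no counting intervals are given.

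Genes that reached 1 FPKM in 3 or more libraries (12777 or 12778 by comparison) were fitted with limma 3.58.1 in R 4.3.3 on log2(FPKM + 1), with group means over all 12 libraries, trended and robust variances, and Benjamini-Hochberg adjustment over all genes at 0.05. Positions come from GENCODE vM21 (GRCm38) through the transcript identifiers. The contractile genes and the gene lists were chosen with earlier results of these data known. Named from each list were its 3 highest genes by mean FPKM and those past the threshold, and the 8 genes most like the mean of the 10. Genes called without DNBS_GR159897 replicate 1 were named after their values were seen. Alternatives were another pseudocount (0.1), filter or scaling, a sex term, a replicate block, library weights, plain variances, only the groups compared, all loci of a name summed, and each library left out. The within-library measure was added after seeing the data, with permutation in Python 3.11.15.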

Additional observations from a re-analysis of the deposited data

How the results depend on the processing

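With 3 libraries a group and unknown depth, changes of the contractile genes below several standard errors were not detectable. Limma called 0 of the 10 under every alternative in the 7 comparisons, except 1 (Myl9) for DNBS averaged over both drug arms with library weights and without DNBS_GR159897 replicate 3.

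Counts of all genes called moved as follows. DNBS_Vehicle against Saline_Vehicle had 41, against 21 (pseudocount 0.1), 13 (no filter), 24 (sex term), 514 (library weights), 19 (all loci summed), 110 (only the groups compared) and 0 (without Saline_Vehicle replicate 1) to 176 (without DNBS_GR159897 replicate 1) with a library left out. DNBS_GR159897 against Saline_GR159897 had 176, against 42 (pseudocount 0.1), 18 (no filter), 25 (sex term), 2154 (library weights), 91 (scaled to the annotated sum) and 90 (by median ratio; 48 higher and 42 lower, against 49 and 127), 9 (only the groups compared) and 4 (without Saline_GR159897 replicate 1 or 3) to 604 (without DNBS_GR159897 replicate 3). DNBS averaged over both drug arms had 1226, against 442 (no filter), 805 (sex term), 3009 (library weights) and 397 to 1655 with a library left out; scaling by median ratio split it into 453 higher and 509 lower calls, against 353 and 873. From 0, Saline_GR159897 against Saline_Vehicle went to 1 (pseudocount and both scalings), 5 (weights) and 0 to 3. DNBS_GR159897 against DNBS_Vehicle went to 2 (pseudocount), 3 (annotated sum), 4 (median ratio), 69 (weights) and 0 to 6, the interaction to 2 (pseudocount), 1 (annotated sum), 5 (weights) and 0 to 2, and GR159897 averaged over both enemas to 1 (pseudocount), 4 (weights) and 0 to 2.

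Replicate numbers did not pair the libraries: deviations of same-numbered libraries correlated at -0.09 to 0.20 (median 0.015, 2 of 18 pairs over 0.1). With a replicate block, 18 genes were called for DNBS_Vehicle against Saline_Vehicle and 31 for DNBS_GR159897 against Saline_GR159897.

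Without DNBS_GR159897 replicate 1, 3 of the 10 genes turned sign in DNBS_GR159897 against DNBS_Vehicle, 5 in DNBS_GR159897 against Saline_GR159897, 7 in the interaction, 4 with DNBS averaged and 1 with GR159897 averaged. Among the values named in the text, signs turned as follows, and the cause was not tested. In DNBS_Vehicle against Saline_Vehicle, Acta2 was at 0.062 by median ratio and between -0.26 and 0.11 with a library left out. Left-out libraries gave -0.11 to 0.64 for Actg2, -0.99 to 0.084 for Cnn1, -0.39 to 0.10 for Mylk and -1.74 to 0.51 for Myh11, which was at 0.0016 with library weights. Lmod1 in Saline_GR159897 against Saline_Vehicle was at -0.105 with all loci summed and between -0.60 and 1.16 with a library left out. Ranges with a library left out were -0.61 to 1.64 for Myh11 in DNBS_GR159897 against DNBS_Vehicle, -0.83 to 1.38 for Des and -0.37 to 1.33 for Myh11 in DNBS_GR159897 against Saline_GR159897, -3.07 to 0.34 for Cnn1 in the interaction, and -0.044 (without DNBS_GR159897 replicate 2) to 1.06 for Des with DNBS averaged. Myh11 with GR159897 averaged was at -0.062 with a sex term and between -0.61 and 0.53.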
